A study of Mus musculus with 4 samples.

Results

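Collagen chain genes were followed in B16-F10-luc-G5 melanoma tumours, a mouse tumour line that carries luciferase. The members are all genes whose symbol in the array annotation has the form Col, number, a, number. There were 39 such genes among 17711 named genes, each read by its brightest probe, and 11 of them encode fibrillar chains, 6 basement membrane (type IV) chains and 22 chains of other types. Cells were injected under the abdominal skin of wild-type mice (2 samples, replicates 2 and 3) and of VAP-1 knockout mice (2 samples, replicates 1 and 2). Tumours were taken after 10 days, per the labels. VAP-1, encoded by Aoc3, is an amine oxidase on endothelium, smooth muscle and fat. All 4 tumours came from the same injected line, so the knockout was carried by the host alone. Mouse strain, age, sex and the making of the allele are not stated in the labels. One Illumina bead array was hybridised per tumour, and a dissected tumour holds melanoma, stroma, vessels and whatever skin or muscle stayed attached.

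Collagens are secreted as trimers of alpha chains wound into a helix of Gly-X-Y repeats. Fibrillar chains such as types I, III and V form the banded fibrils of stroma, type IV chains form the sheet under endothelium and epithelium, and fibril-associated, transmembrane and anchoring types connect fibrils, cells and basement membranes. In tumours much of the fibrillar collagen is made by fibroblasts, and type IV collagen by vessels as well as by tumour cells.

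The upstream sequences of the genes of the other types with the widest gaps between the groups are shown so that the genes can be set in the genome. Each is the stretch of 250 bases that ends just before the annotated start site, read 5′ to 3′ on the gene's strand, from RefSeq on build GRCm38.p6. Capitals mark matches on either strand to GGGCGG (the GC box), to CCAAT, to the TATA box letters TATAAA and to the AP-1 element letters TGAGTCA, which do not overlap each other in these windows.
Col16a1 (chr4:130047590-130047839, + strand): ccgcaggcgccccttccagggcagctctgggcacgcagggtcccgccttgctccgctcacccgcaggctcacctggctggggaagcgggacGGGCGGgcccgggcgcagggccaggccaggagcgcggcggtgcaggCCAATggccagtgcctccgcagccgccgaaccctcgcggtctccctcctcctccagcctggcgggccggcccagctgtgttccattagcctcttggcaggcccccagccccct
Col7a1 (chr9:108953336-108953585, + strand): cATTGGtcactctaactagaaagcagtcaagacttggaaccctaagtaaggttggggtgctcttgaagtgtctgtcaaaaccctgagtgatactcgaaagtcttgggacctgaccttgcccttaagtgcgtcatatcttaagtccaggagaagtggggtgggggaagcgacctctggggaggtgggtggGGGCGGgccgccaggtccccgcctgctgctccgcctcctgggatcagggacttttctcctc
Col17a1 (chr19:47692043-47692292, - strand): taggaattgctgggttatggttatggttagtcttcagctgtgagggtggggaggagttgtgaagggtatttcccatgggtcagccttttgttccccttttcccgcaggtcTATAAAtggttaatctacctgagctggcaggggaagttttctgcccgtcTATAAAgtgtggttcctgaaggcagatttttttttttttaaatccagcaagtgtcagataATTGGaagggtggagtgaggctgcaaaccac
A promoter entry was found for 32 of the 39 collagen genes. The GC box letters occurred upstream of 20 of these 32 genes (62.5%), against 32.7% of all 32851 promoter windows. CCAAT occurred upstream of 13 (40.6%), against 33.8%, TATAAA upstream of 5 (15.6%), against 12.4%, and TGAGTCA upstream of 1 (3.12%), against 4.46%. A collagen gene was counted where any of its windows held the letters, while the other shares are per window, so the units differ. A match describes the letters of the window only.

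Values below are normalized probe signals on the log2 scale, differences are knockout minus wild type, and SE is that of the limma fit. Probes had to pass a filter at a mean of 6.07, and 32 of the 39 collagen genes passed, among 27979 probes tested. The 7 that did not were Col4a3, Col24a1, Col26a1, Col6a4, Col6a6, Col19a1 and Col8a2. Unnormalized median signal was 63.3 and 55.3 on the wild-type arrays and 64.8 and 68.3 on the knockout arrays. Sums of linear signal below are over every marker of a list, whether it passed the filter or not. All 9 melanocyte markers passed, and their summed linear signal was 95214 to 97856 in wild type and 105827 to 111109 in knockout. The Aoc3 probes did not separate the groups. The brighter read 8.01 and 7.18 in wild type and 7.29 and 7.16 in knockout, a difference of -0.37 ± 0.30 (limma adjusted p = 0.606), and where the probes lie relative to the deletion is not known here. Groups are therefore named as labelled. With 2 arrays against 2, an exact permutation test cannot go below 0.333.

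No collagen gene passed the threshold of the fit. At a limma adjusted p under 0.05, 0 of 32 collagen genes were called, and over all probes 0 of 27979 (0%), while 4577 probes (16.4%) had an unadjusted p under 0.05. Read by their brightest probes, collagen genes leaned towards higher means in the knockout. By gene, 21 had a higher mean and 11 a lower one, with a median difference of 0.14 beside -0.02 over all probes. Counted by probe the lean was slight: of 50 kept collagen probes 26 had higher and 24 lower means, with a median of 0.017. The split of the genes was 27 to 5 with median scaling and 17 to 15 with 75th percentile scaling. Of the 32, 4 with higher means (Col16a1, Col4a2, Col7a1 and Col5a3) and 0 with lower means had an unadjusted p under 0.05, where 9.27% of all probes had higher and 7.09% lower means at that level. The 4 genes are 12.5% of those tested, a share near the background. With a difference of at least 1.5-fold added, Col16a1 and Col7a1 remained, 2 of 32 or 6.25%, beside 4.6% of probes higher and 3.19% lower. Those probes were 1286 higher and 892 lower, against 3002 and 40 with median scaling and 1594 and 351 with 75th percentile scaling. The groups did not overlap for 13 collagen genes higher in the knockout (40.6%, against 23.6% of all probes) and for 3 lower (9.38%, against 25.6%). In either direction, 49.2% of all probes did not overlap. Of the 13, Col9a2 and Col23a1 passed the filter through the knockout group alone, and of the 3, Col11a1 through the wild type alone. Over all kept collagen probes the shares without overlap were 32% higher and 12% lower.

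**Figure D1:**
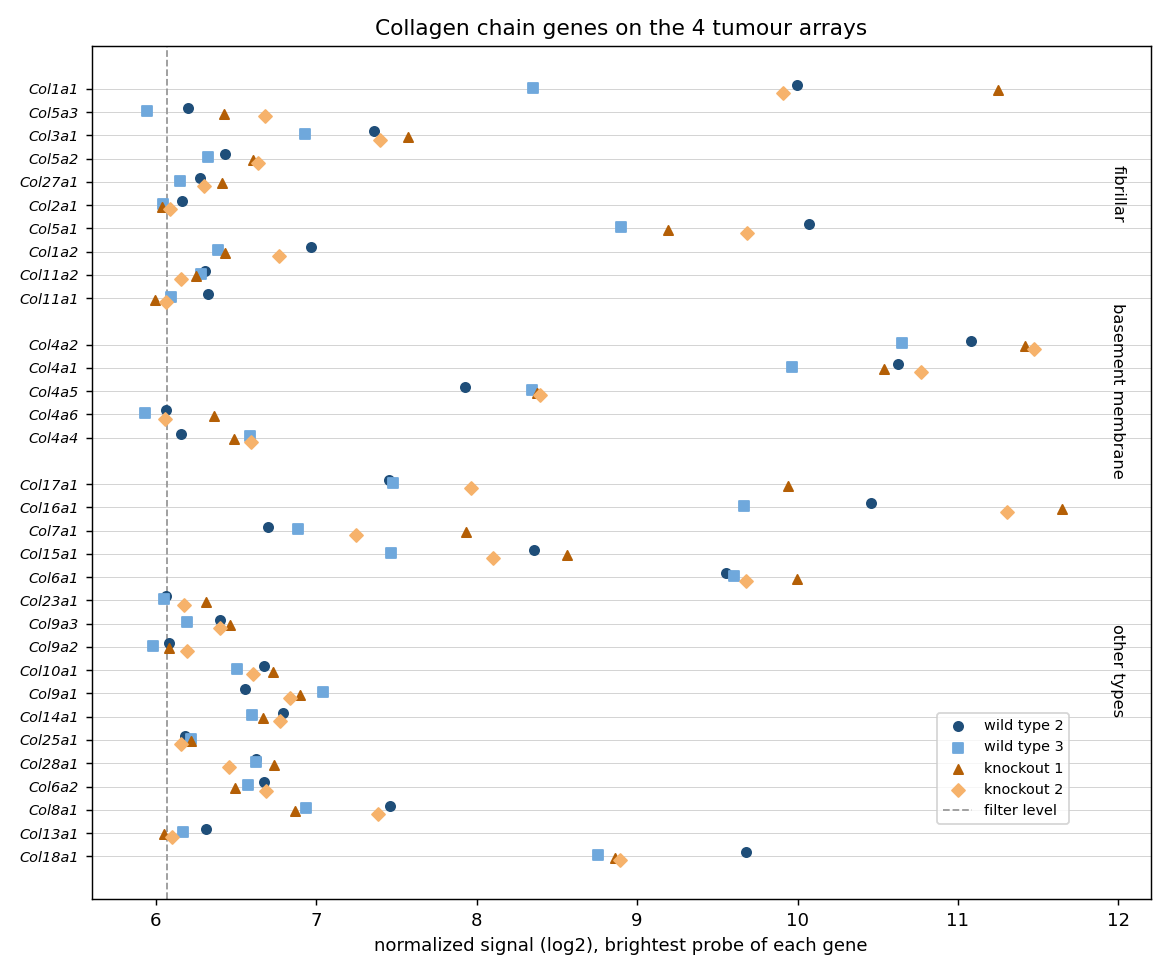
Normalized log2 signal (horizontal axis) of the 32 collagen genes that passed the filter, 1 row per gene, ordered within each type by the difference between groups. Each symbol is 1 array, and the dashed line is the filter level of 6.07. Col16a1 and Col7a1 show both knockout arrays to the right of both wild-type arrays, Col1a1 is spread widely within each group, and many genes lie close to the filter level.

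The wild-type tumours differed from each other in collagen signal. Of the 32 genes, 25 (78.1%) read higher in wild-type replicate 2 than in replicate 3, where 46.9% of all kept probes did so. In the knockout, 16 of 32 read higher in replicate 1 than in replicate 2. The SD of the log2 difference between the wild-type arrays was 0.460 over the collagen genes and 0.395 over all kept probes. Between the knockout arrays it was 0.482 and 0.246. That wider spread rested on 3 genes, Col17a1, Col1a1 and Col7a1, singled out after their values were seen: over the other 29 genes the SD was 0.394 between the wild-type arrays and 0.233 between the knockout arrays.

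Among fibrillar chains, means went both ways. Of the 10 tested, 5 had higher and 5 lower means in the knockout, with a median of 0.05. Col1a1, which encodes the alpha 1 chain of type I collagen, the main fibril protein of skin and stroma, read 10.00 and 8.35 in wild type and 11.25 and 9.91 in knockout. Knockout replicate 2 lay just under wild-type replicate 2, so the groups overlapped. The difference of 1.41 ± 0.72 (2.65-fold, 95% interval -0.50 to 3.31, limma adjusted p = 0.431) was within the spread between replicates, and it ran from 0.58 without wild-type replicate 3 to 2.23 without wild-type replicate 2.

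Col1a2, which encodes the chain that joins that of Col1a1 in type I collagen, did not follow it. Its probe read 6.96 and 6.39 in wild type and 6.43 and 6.77 in knockout, with a difference of -0.08 ± 0.24. The highest and lowest values were both wild type. A probe near the floor has compressed differences, and a sole probe read each of these genes.

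Col3a1, the homotrimeric type III chain of young stroma and vessel walls, read 7.36 and 6.93 in wild type and 7.57 and 7.40 in knockout. Both knockout values lay above both wild-type values, the nearest pair differing little, and the difference was 0.34 ± 0.18 (limma adjusted p = 0.452). It was 0.13 without wild-type replicate 3, 0.56 without wild-type replicate 2 and 0.68 with median scaling. Its second probe, near the floor, did not show this (-0.08 ± 0.13).

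Type V collagen sits inside type I fibrils and limits their width. Its chains are given in turn, and whether their differences differ from each other was not tested. Col5a1 read 10.07 and 8.90 in wild type and 9.19 and 9.69 in knockout. Both knockout tumours fell between the wild-type tumours, and the difference was -0.05 ± 0.44. Its sign turned under both other scalings, to 0.35 with median scaling and 0.12 with 75th percentile scaling.

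Col5a2, the genomic neighbour of Col3a1, read 6.43 and 6.32 in wild type and 6.61 and 6.64 in knockout. The groups did not overlap, and the difference was 0.25 ± 0.10 (limma adjusted p = 0.356). Col5a3 read 6.20 and 5.94 in wild type and 6.43 and 6.68 in knockout. Both knockout tumours were higher, by 0.48 ± 0.15 (95% interval 0.07 to 0.89, limma adjusted p = 0.248), from signals close to the floor in wild type. With a background offset of 16 in place of 50 the difference was 0.85, and with 75th percentile scaling it was 0.30 (unadjusted p = 0.121, limma). Without wild-type replicate 3 or knockout replicate 2 the unadjusted p was 0.0785 and 0.162 (limma).

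The remaining fibrillar chains are those of cartilage and related tissues, and all lay near the filter level. Col2a1 (type II) read 6.16 and 6.05 in wild type and 6.04 and 6.09 in knockout, a difference of -0.04 ± 0.11. Col11a1 read 6.33 and 6.09 against 5.99 and 6.06 (-0.18 ± 0.13), and Col11a2 read 6.31 and 6.28 against 6.25 and 6.16 (-0.09 ± 0.10). For both type XI chains the knockout values lay below the wild-type values, and neither had an unadjusted p under 0.05. Col27a1 read 6.28 and 6.15 against 6.41 and 6.30 (0.14 ± 0.11), and its second kept probe differed by -0.03 ± 0.11. With 75th percentile scaling the Col27a1 difference was -0.06.

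All 5 tested type IV chains had higher means in the knockout, with a median of 0.25 and a range of 0.17 to 0.58. Of these, Col4a6 passed the filter through the knockout group alone, so the filter favoured its higher mean. It also changed sign with 75th percentile scaling. Col4a1 and Col4a2 encode the chains of the common network of vessel and epithelial basement membranes. They lie on opposite strands, and their annotated start sites lie 21 bases apart in the RefSeq promoter table. Each start site falls inside the other gene, so the 5′ ends overlap and the upstream bases of each lie within the other gene. Their windows of 300 bases share 78. Upstream of Col4a2 the window held the GC box letters at 2 places and CCAAT at 1. Upstream of Col4a1 it held CCAAT at 1 place and the GC box letters at 0.

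Col4a2 read 11.08 and 10.65 in wild type and 11.42 and 11.47 in knockout. Both knockout tumours were higher than both wild-type tumours, by 0.58 ± 0.17 (1.496-fold, 95% interval 0.12 to 1.04, limma adjusted p = 0.226). Without wild-type replicate 2 the difference was 0.80, and without wild-type replicate 3 it was 0.37. Leaving out knockout replicate 1 gave 0.61 and leaving out knockout replicate 2 gave 0.55. Col4a1 read 10.63 and 9.97 in wild type and 10.54 and 10.77 in knockout. Wild-type replicate 3 was lowest, wild-type replicate 2 lay between the knockout tumours, and the difference was 0.36 ± 0.25, with 0.03 without wild-type replicate 3, 0.69 without wild-type replicate 2 and 0.63 with median scaling.

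The other pairs of type IV chains have narrower roles, in glomerular, lung and epithelial basement membranes. Col4a5 read 7.92 and 8.35 in wild type and 8.38 and 8.39 in knockout. Wild-type replicate 3 was nearly level with the knockout tumours, and the difference was 0.25 ± 0.17, with 0.44 ± 0.17 at a second probe. At the first probe it was 0.04 without wild-type replicate 2, 0.46 without wild-type replicate 3 and 0.67 with median scaling. Col4a6, its neighbour on the X chromosome, read 6.07 and 5.93 against 6.36 and 6.05 (0.21 ± 0.15), and with 75th percentile scaling the difference was -0.03. Col4a4 read 6.16 and 6.59 against 6.49 and 6.59 (0.17 ± 0.18), and 0.24 ± 0.13 at its second probe. Without wild-type replicate 2 it was -0.05. Col4a3 did not pass the filter.

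Endothelial markers had means that went both ways. Of 10 kept, 6 had lower and 4 higher means (40% higher, against 46.2% of all probes), with a median of -0.27. At an unadjusted p under 0.05 there were 4 lower (Cldn5, Kdr, Emcn and Esam) and 1 higher (Vwf). At that level 7.09% of all probes were lower and 9.27% higher. The groups did not overlap for 5 lower and 3 higher markers of the 10, beside 25.6% and 23.6% of all probes. Vwf, the von Willebrand factor gene, read 10.08 and 8.91 in wild type and 11.09 and 11.09 in knockout, while Kdr, a receptor for vascular endothelial growth factor, read 7.55 and 7.29 against 6.78 and 6.93. The summed linear signal of the list was 4096 to 5082 in wild type and 4811 to 5365 in knockout, and without Vwf it was 3616 to 3998 and 2630 to 3192. Of 7 pericyte and smooth muscle markers 4 had lower means (median -0.27), and the sum was 4593 to 5115 against 3257 to 3881. Without Acta2, the smooth muscle actin gene, that sum was 1434 to 1563 against 1478 to 1570. Acta2 (-0.72 ± 0.17) was the brightest of the list, and its 2 other probes differed by 0.16 ± 0.20 and -0.26 ± 0.14. Of the dimmer markers, Cspg4 (-0.57 ± 0.10) and Tagln (-0.27 ± 0.12) were also lower in both knockout tumours. Rgs5 had a lower mean with overlapping groups (-0.46 ± 0.27), and the 3 other kept markers had higher means, by up to 0.28. In these bulk samples, fewer cells of a type and less RNA per cell cannot be told apart.

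**Figure D2:**
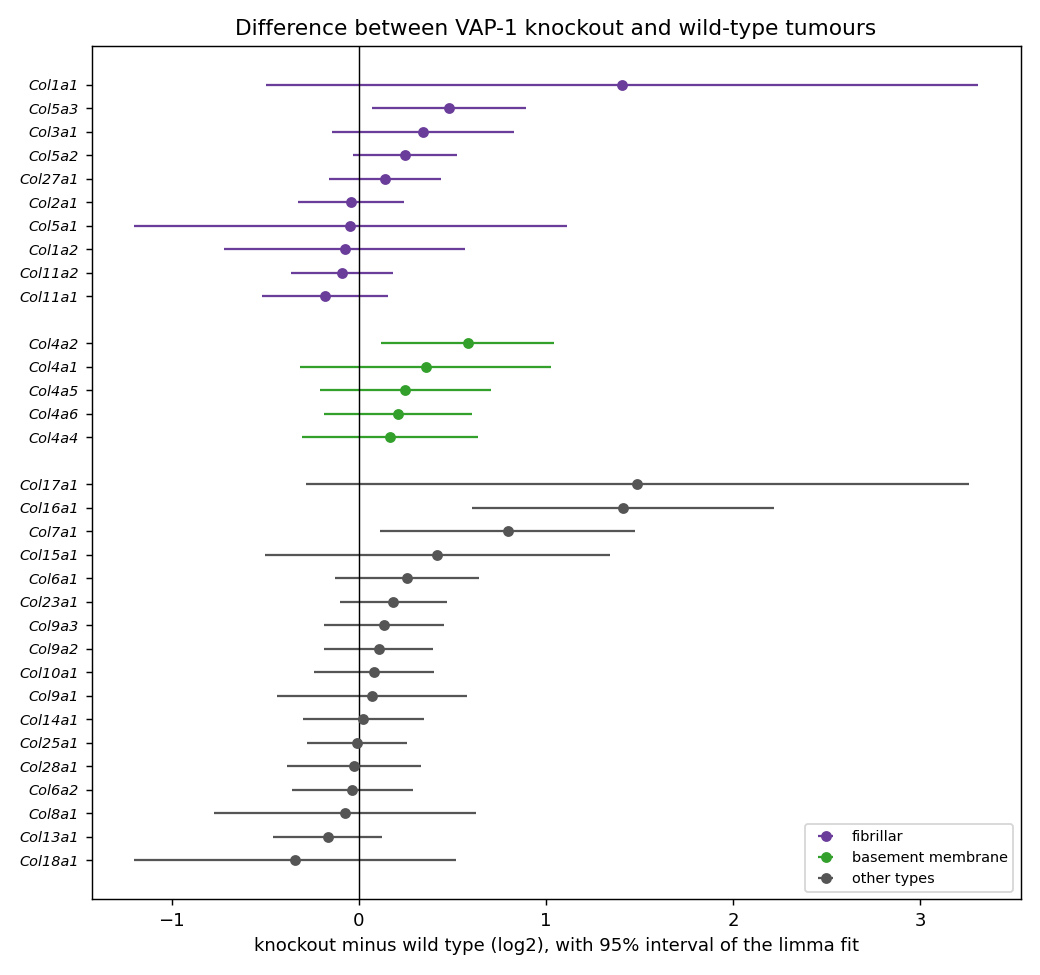
Difference between knockout and wild type on the log2 scale (horizontal axis) for each of the 32 collagen genes, with the 95% interval of the limma fit, coloured by type. The 5 type IV genes all lie to the right of 0, with Col4a6 kept by the filter through the knockout group alone. The intervals of Col16a1, Col7a1, Col4a2 and Col5a3 do not cross 0, and those of Col1a1 and Col17a1 are the widest.

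Among the chains of other types, Col16a1 showed the smallest p of all collagen genes. It encodes type XVI collagen, a fibril-associated chain found in skin, cartilage and smooth muscle, and its upstream bases are printed above. It read 10.46 and 9.67 in wild type and 11.65 and 11.31 in knockout. Both knockout tumours were above both wild-type tumours, and the gap between the nearest arrays of the groups was slightly wider than that between the wild-type tumours. The difference was 1.41 ± 0.30 (2.66-fold, 95% interval 0.61 to 2.22, unadjusted p = 0.00722), and it did not pass over all probes (limma adjusted p = 0.150). It was 1.24 without knockout replicate 1 and 1.02 without wild-type replicate 3, and without wild-type replicate 2 it was 1.81 and passed (limma adjusted p = 0.0332). The median, 75th percentile and other background settings gave 1.40 to 1.63. A sole probe measured this gene.

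Col17a1 and Col7a1 encode collagens of the junction between epidermis and dermis. Type XVII is a transmembrane protein of keratinocyte hemidesmosomes, and type VII forms the anchoring fibrils beneath them. Col17a1 read 7.46 and 7.48 in wild type and 9.94 and 7.97 in knockout. Knockout replicate 1 stood far above the rest, and replicate 2 was modestly above the wild-type tumours. The difference was 1.49 ± 0.67 (95% interval -0.28 to 3.26, limma adjusted p = 0.377), and its second probe, with 6.44 and 6.45 in wild type and 8.32 and 6.98 in knockout, differed by 1.20 ± 0.46. At the first probe, leaving out knockout replicate 1 gave 0.50 and leaving out replicate 2 gave 2.48.

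Col7a1 read 6.70 and 6.89 in wild type and 7.93 and 7.25 in knockout. The order of the tumours was the same as for Col17a1 in the knockout, with replicate 1 highest, and the difference was 0.80 ± 0.26 (1.74-fold, limma adjusted p = 0.248). Without knockout replicate 1 it was 0.45.

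Keratinocyte marker signal was high in knockout replicate 1, and no marker passed at a limma adjusted p under 0.05. Col17a1, Col7a1 and Col1a1 were also highest on that array, as were Col16a1, Col3a1, Col6a1, Col15a1 and some dimmer collagen genes. Of 13 markers on the array 12 passed the filter (Dsc3 did not), and 10 of the 12 had higher means in the knockout, with a median difference of 0.88. The 2 lower means were those of Dsg3 (-0.42 ± 0.17, with 0.11 ± 0.10 at a second probe) and Perp (-0.17 ± 0.10). The summed linear signal of the list was 9037 to 9593 in wild type, 27185 in knockout replicate 1 and 10549 in knockout replicate 2. Relative to wild type, the median over the 12 markers was 1.48 for knockout replicate 1 but 0.14 for replicate 2. Skeletal muscle markers had a sum of 4042 to 4311 in wild type against 10028 and 5337, with 8 of 11 higher. Adipocyte markers, of which 5 of 8 passed the filter (Cd36, Fabp4 and Plin1 did not), had a sum of 1102 to 1308 in wild type against 2250 and 1319, with 4 of the 5 higher. All 3 sums were thus highest in knockout replicate 1. The part of these lists in the Col17a1, Col7a1, Col1a1 and Col16a1 values was not tested.

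**Figure D3:**
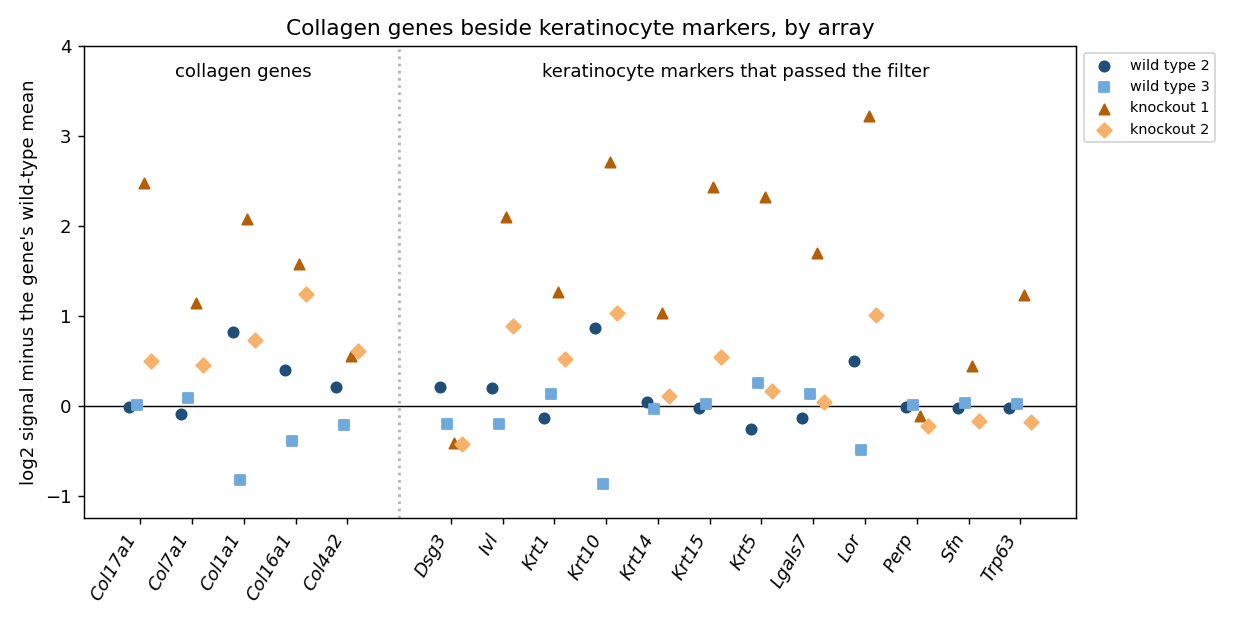
Log2 signal of each array minus the gene's wild-type mean (vertical axis) for 5 collagen genes, left, and the 12 keratinocyte markers that passed the filter, right. Knockout replicate 1 (triangles) stands above the other arrays for Col17a1, Col7a1, Col1a1, Col16a1 and 10 of the markers. Both knockout arrays lie above both wild-type arrays for Col17a1, Col7a1, Col16a1 and Col4a2.

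Fibroblast markers mostly had lower means in the knockout. Of 10 kept (Tcf21 did not pass), 8 had lower and 2 higher means in the knockout (20% higher, against 46.2% of all probes). The median was -0.05, near the -0.02 over all probes. The summed linear signal of the list overlapped, at 4714 to 5258 in wild type and 4104 to 5025 in knockout. The extracellular glycoprotein gene Fbln1 read 11.14 and 11.03 against 10.69 and 10.58 (-0.45 ± 0.11). Both knockout tumours were lower than both wild-type tumours for Fbln1, S100a4 (-0.42 ± 0.18) and Twist2 (-0.22 ± 0.11). These are 30% of the markers, beside 25.6% of all probes, and 0 markers were higher without overlap. Thy1, a surface glycoprotein gene, read 10.42 and 10.03 against 10.83 and 10.07 (0.23 ± 0.30), and Pdgfra, a growth factor receptor gene, read 7.74 and 7.60 against 8.13 and 7.59 (0.19 ± 0.21). Thy1 and Pdgfra are the 2 markers with higher means, named after their values were seen, and both were highest in knockout replicate 1.

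Type XV and type XVIII collagens are multiplexins of vessel basement membranes, and the end of the type XVIII chain is released as endostatin, an inhibitor of vessel growth. Col15a1 read 8.36 and 7.47 in wild type and 8.56 and 8.10 in knockout, a difference of 0.42 ± 0.35 with overlapping groups. It was 0.86 without wild-type replicate 2 and -0.02 without wild-type replicate 3. Col18a1 read 9.68 and 8.76 in wild type and 8.86 and 8.89 in knockout. Wild-type replicate 2 alone was high, and the difference was -0.34 ± 0.32. Without wild-type replicate 3 it was -0.80 and passed (limma adjusted p = 0.0486), while without wild-type replicate 2 it was 0.12 and with median scaling 0.06, so its sign rested on 1 wild-type tumour.

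Of the beaded filament chains of type VI collagen, Col6a1 read 9.56 and 9.60 in wild type and 10.00 and 9.68 in knockout. The groups did not overlap, and the difference of 0.26 ± 0.14 was not seen at its second kept probe (-0.08 ± 0.12). Without knockout replicate 1 it was 0.10, and with median scaling 0.61. Col6a2, near the floor, differed by -0.03 ± 0.12.

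The other tested genes differed by little. Col13a1, a transmembrane chain, differed by -0.17 ± 0.11 and Col23a1, another, by 0.19 ± 0.11 at the brightest probe and -0.01 ± 0.12 at the second. Col8a1 of vessel walls read 7.46 and 6.94 against 6.86 and 7.38 (-0.07 ± 0.26). Col14a1, Col9a1, Col9a2, Col9a3, Col10a1, Col25a1 and Col28a1 had differences from -0.02 to 0.13, each within 1.5 times its SE. Of 16 genes with more than 1 kept probe, 7 had a probe of opposite sign. There were 5 genes, Col4a6, Col11a1, Col2a1, Col9a2 and Col23a1, that passed the filter with 1 group's mean below its level.

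Under 5 other settings and without each array in turn, 11 of the 32 genes always had a higher mean in the knockout and 3 always a lower one. The 11 were Col1a1, Col3a1, Col5a2, Col5a3, Col4a1, Col4a2, Col4a5, Col6a1, Col7a1, Col16a1 and Col17a1. The 3 were Col11a1, Col11a2 and Col13a1, all close to the floor.

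**Figure D4:**
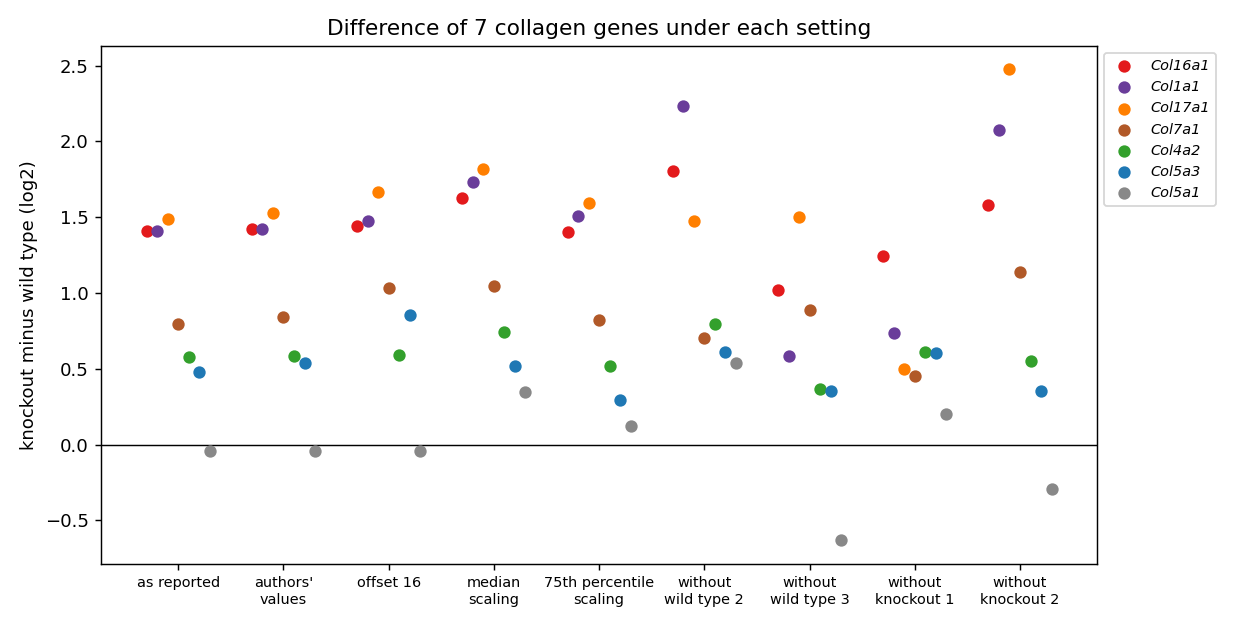
Difference between knockout and wild type on the log2 scale (vertical axis) for 7 collagen genes under each way of processing the arrays and without each array in turn. Col16a1 lies between 1.02 and 1.81 throughout, Col17a1 drops to 0.50 without knockout replicate 1, Col1a1 ranges from 0.58 to 2.23, and Col5a1 changes sign.

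Enzymes and chaperones that modify and fold procollagen in the endoplasmic reticulum went both ways. Of 18 tested, 12 had higher and 6 lower means (median 0.16), and 0 passed over all probes. Ppib, which encodes cyclophilin B, a prolyl isomerase of the complex that hydroxylates collagen, read 11.76 and 11.56 in wild type and 10.91 and 10.90 in knockout (-0.76 ± 0.12). P4ha1, a catalytic subunit of prolyl 4-hydroxylase, read 8.69 and 8.14 against 7.73 and 7.82 (-0.64 ± 0.21), and its second probe, near the floor, differed by 0.18 ± 0.15. Plod1, a lysyl hydroxylase, read 10.04 and 10.08 against 9.40 and 9.64 (-0.54 ± 0.13). These genes were lower in both knockout tumours. P3h3, of the prolyl 3-hydroxylase family, was higher in both, at 9.38 and 9.59 in wild type against 10.12 and 10.27 (0.71 ± 0.13).

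Of 9 procollagen proteinase and crosslinking genes, 5 had higher and 4 lower means (median 0.06). Bmp1, the proteinase that trims the end of fibrillar procollagens, read 7.02 and 7.33 against 7.60 and 7.52 (0.39 ± 0.15), with 3 other probes between -0.05 and 0.32. The enhancer gene of that cleavage, Pcolce2, differed by 0.30 ± 0.11, the lysyl oxidase gene Lox by 0.43 ± 0.31 and its relative Loxl2 by -0.17 ± 0.12. Of 6 collagen receptor genes, Ddr2, a receptor tyrosine kinase for fibrillar collagen, read 7.64 and 8.02 against 8.50 and 8.31 (0.58 ± 0.17). Ddr1 (0.36 ± 0.29), Itgb1 (-0.10 ± 0.12) and Lair1 (-0.09 ± 0.11) differed less. All 6 tested small leucine-rich proteoglycan genes, whose proteins coat collagen fibrils, had overlapping groups at their brightest probes. Lum differed by 0.25 ± 0.26, Bgn by 0.16 ± 0.18, Prelp by 0.32 ± 0.48 and Dcn by 0.30 ± 0.47. The 4 other Dcn probes ran from -0.50 to 0.69. Those at 0.69 and 0.16 were higher in both knockout tumours, and those at 0.54 and -0.50 had overlapping groups.

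Partners of type IV collagen in the basement membrane had means that went both ways. Of 11 tested, 7 had higher and 4 lower means (median 0.06). The groups did not overlap for 4 higher (36.4%, against 23.6% of all probes) and 2 lower (18.2%, against 25.6%). The laminin beta 2 gene Lamb2 read 8.32 and 8.15 against 9.11 and 8.92 (0.78 ± 0.13), the laminin alpha 5 gene Lama5 read 6.34 and 6.48 against 7.16 and 6.95 (0.64 ± 0.13), and the heparan sulphate proteoglycan gene Agrn read 11.79 and 11.38 against 12.44 and 12.30 (0.79 ± 0.17). These were higher in both knockout tumours, as Col4a2 was. Lama4, the laminin alpha 4 chain of vessels, was lower in both, at 8.65 and 8.25 in wild type against 7.75 and 7.73 (-0.71 ± 0.17). The laminin gamma 1 gene Lamc1 was also lower in both, at 10.23 and 9.44 against 9.10 and 9.42 (-0.58 ± 0.30). Its nearest arrays of the groups were nearly level. A second probe of Agrn (-0.07 ± 0.11) and 2 of Lama4 (0.02 and 0.04), all near the floor, did not show these differences. None of the members of these lists passed over all probes with limma.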

How the data were processed

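Total RNA (100 ng) of each tumour was amplified and biotin labelled with 14 h of in vitro transcription, per the labels. The deposited unnormalized intensity values carry no detection p-value or background column. The deposited value table also holds intensity, quantile normalized on the linear scale by the authors, as its shared quantiles show. Neither scanner software nor batches are stated in the labels. The 46632 rows of the value table were paired with unnormalized rows by their 4 values (all within 0.001 on the log2 scale; 11 of 46643 unnormalized rows had no partner). Of the probes, 29976 had 1 gene symbol in the platform annotation, 10 had several and 16646 had none.

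Unnormalized values were background corrected (normexp, offset 50), quantile normalized, put on the log2 scale and kept above the 40th percentile of the mean. They were fitted with limma 3.58.1 in R 4.3.3 (lmFit, eBayes, two-sided, Benjamini-Hochberg over 27979 probes, threshold 0.05; 2 residual and 2.49 prior degrees of freedom) and read with pandas 2.3.3 and numpy 2.4.6 under Python 3.11.15. Correction and offset shrink differences of dim probes, and 4 arrays limit precision. The fit was tested on simulated data. The labels number the samples of a genotype but do not say that each is a separate animal, so p-values measure the spread between these samples.

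Each gene is read by its probe of highest mean log2 value in the value table. Array values are given for every tested fibrillar and type IV gene and for other collagen genes with an unadjusted p under 0.05 or with groups apart by 1.5-fold, with other collagen genes added where a second probe or a single tumour bears on them. Up to 4 genes of smallest p are named per related list, with others where they go against the rest of a list. Lists were described by counts and medians, with no set test. The members and lists were chosen with earlier results of these data known.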

Additional observations from a re-analysis of the deposited data

How the results depend on the processing

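No paired analysis was possible because the groups share a single replicate number, 2. Alternatives were the authors' processed values, a normexp offset of 16, median and 75th percentile scaling, no filter or one at the 60th percentile, the mean of all kept probes, a trend with robust prior, and leaving out each array; where the cause of a change is not named it was not tested. Probes called at an adjusted p under 0.05 were 4 with the trend and robust prior and 0 to 1669 without each array, and collagen genes called were 0 to 2 (Col4a2 and Col16a1 without wild-type replicate 2, Col18a1 without replicate 3), with 1 array left in a group and assumed to vary like the other. Collagen genes higher at an unadjusted p under 0.05 and 1.5-fold were 2, but 5 with offset 16, 8 with median scaling and 2 to 6 without each array; lower ones were 0 to 2 without each array. The median over collagen genes of 0.14 became 0.24 with offset 16, 0.25 with median scaling, 0.027 with 75th percentile scaling, 0.25 with the 60th percentile filter, which tests fewer genes, and 0.045 to 0.20 without each array. Median scaling put the median of all probes at 0.08 and 75th percentile scaling at -0.14; relative to that shift the collagen median was 0.17 under both. The fibrillar median was 0.26 with median scaling, 0.29 with the 60th percentile filter and -0.012 to 0.26 without each array. The type IV median was 0.37 with offset 16, 0.63 with median scaling, 0.41 with 75th percentile scaling, 0.34 with the mean of probes and 0.24 to 0.37 without each array. The median of other types was 0.22 with median scaling, -0.0047 with 75th percentile scaling, 0.016 with no filter and 0.0090 to 0.16 without each array. Of the 32 collagen genes 18 changed sign in some alternative or without some array, the fibrillar and type IV ones being Col1a2 (0.10 with median scaling, -0.36 to 0.21 without each array), Col5a1 (0.35 and 0.12 with median and 75th percentile scaling, -0.63 to 0.54 without each array), Col27a1 (-0.056) and Col4a6 (-0.035) with 75th percentile scaling, and Col2a1 (-0.10 to 0.017) and Col4a4 (-0.047 to 0.38) without each array; the others were Col6a2, Col8a1, Col9a1, Col9a2, Col9a3, Col10a1, Col14a1, Col15a1, Col18a1, Col23a1, Col25a1 and Col28a1. Sums without Vwf or Acta2 and the spread without Col17a1, Col1a1 and Col7a1 were chosen after seeing the data. Depth is limited by signal over background: the lowest normalized value was 5.65, and differences of probes near it are compressed.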
